A study of Mus musculus with 6 samples.

Results

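Aminoacyl-tRNA synthetases join each amino acid to its transfer RNA (tRNA), and their mRNAs were followed in primary hepatocytes of alcohol-fed mice with or without a heterozygous loss of S100a16. The members were chosen by gene symbol, from the symbols of the deposited table that name a synthetase by amino acid letter and ars, together with Eprs, Farsa, Farsb and Tarsl2. Earlier results of these data were known when this choice was made. Values are given for 37 of the 25718 genes in the table, 21 that serve the cytosol and 16 whose symbols end in 2 and that serve mitochondria. The WT and S100a16KO+/- groups held 3 libraries each, all from primary hepatocytes, which were freed from the liver by collagenase and separated on Percoll. Both genotypes were on a C57BL/6 background, aged 8 to 10 weeks, and had the same alcohol feeding, so alcohol is shared by all 6 libraries and no library without it was analysed here. Feeding ran for 5 days on a control liquid diet and for 10 days on a diet with 5% ethanol, and ended with 1 gavage of 5 g of ethanol per kg, 9 h before collection. The S100a16 deletion came from EIIa-Cre, which acts in the early embryo, so that it is not limited to hepatocytes, and the labels call this group a knockdown. Nothing in the labels says which libraries came from which animals, and p values measure the spread between these libraries.

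Each synthetase recognises an amino acid, activates it with ATP and transfers it to the matching tRNA, and so sets the supply of charged tRNA to the ribosome. Mitochondria translate their own few mRNAs and use a separate set of nuclear-encoded enzymes for this. Glycine and lysine are exceptions, since Gars and Kars each serve the cytosol and the mitochondrion. Uncharged tRNA activates the kinase GCN2, which phosphorylates the initiation factor eIF2 alpha and thereby raises translation of the transcription factor ATF4. ATF4 in turn induces genes of amino acid supply, among them many cytosolic synthetases, through a C/EBP-ATF response element (CARE). Of the 21 cytosolic members, 13 are counted here as induced by ATF4 in other settings, namely Aars, Cars, Eprs, Gars, Iars, Lars, Mars1, Nars, Sars, Tars, Vars, Wars and Yars. The mitochondrial enzymes are not commonly counted among its targets.

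Promoter sequence is shown first for the members whose promoter holds the CARE core, because ATF4 acts through this element and the members it induces are compared with the others. The core was searched as TGATGNAA on both strands, in windows from 250 bases before to 50 bases after the RefSeq gene start (GRCm38.p6). A window was at hand for 28 of the 37 members, and 5 of these held the core, all of them cytosolic members induced by ATF4. They made up 5 of the 8 such members with a window, against 0 of 14 mitochondrial members and 4.51% of all 27025 genes with a window. Members without a window were Cars, Hars, Lars, Nars, Rars, Vars, Wars, Hars2 and Pars2. The lines below give 30 bases around the match nearest the RefSeq start of each gene, read 5′ to 3′ on the strand that carries the core, with the core in capitals. Yars and Aars are shown because they passed the test of genotype, and Tars, Gars and Iars were added after the values were seen. A match is a description of the letters and was not tested as a binding site.
Yars, chr4:129189895-129189924, plus strand: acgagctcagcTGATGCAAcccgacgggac
Aars, chr8:111033840-111033869, minus strand: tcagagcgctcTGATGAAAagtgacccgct
Tars, chr15:11399655-11399684, plus strand: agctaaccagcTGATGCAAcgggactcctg
Gars, chr6:55037960-55037989, minus strand: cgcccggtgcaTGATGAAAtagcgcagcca
Iars, chr13:49682126-49682155, minus strand: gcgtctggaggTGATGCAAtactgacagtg

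Counted from the RefSeq start as +1, the core lay at +10 to +17 in Aars, at -30 to -23 in Gars, at -15 to -8 in Tars, at +4 to +11 in Yars and at +8 to +15 in Iars. Only the core of Yars ran in the direction of its gene. The other 4 matches were on the opposite strand of the gene.

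Most of the 37 synthetase mRNAs lay close to WT in S100a16KO+/- hepatocytes and did not pass the test. All 37 passed the filter on low counts and were tested together with the other genes, 15957 in all. With edgeR's quasi-likelihood test and a Benjamini-Hochberg adjusted p under 0.05, 7 of the 37 members (18.9%) were called, 5 higher and 2 lower in S100a16KO+/- hepatocytes. Of all tested genes 22.8% were called, 11.6% higher and 11.2% lower, and among the 9927 genes within the members' range of mean abundance 28.3% were called. The share of called synthetases was thus near, and somewhat under, the background. The study's own rule, an unadjusted p under 0.05 with a change of at least 2-fold, took in 4.52% of tested genes and 0 of the 37 synthetases, of which 14 had an unadjusted p under 0.05. The 95% interval of the log2 fold change lay within 2-fold in either direction for all 37 members and within 1.5-fold for 31 of them.

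In the cytosolic set 6 of 21 were called (28.6%), with Sars, Vars, Farsa and Wars higher and Aars and Yars lower. In the mitochondrial set 1 of 16 was called (6.25%), Cars2, which was higher, and 2 of 16 had an unadjusted p under 0.05. The median log2 fold change was -0.05 over the cytosolic members and -0.02 over the mitochondrial members, beside 0.01 over all tested genes. Neither set moved as a whole in these medians. The genotypes did not overlap in CPM (TMM-scaled counts per 1000000) for 15 of 37 members (40.5%), 12 cytosolic (57.1%) and 3 mitochondrial (18.8%). Of all tested genes 37.9% had no overlap, and the difference between the 2 sets was not tested. Besides the 7 called members, those without overlap were Gars, Kars, Qars and Ears2, above WT in all 3 S100a16KO+/- libraries, and Cars, Eprs, Tars and Aars2, below WT in all 3.

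**Figure D1:**
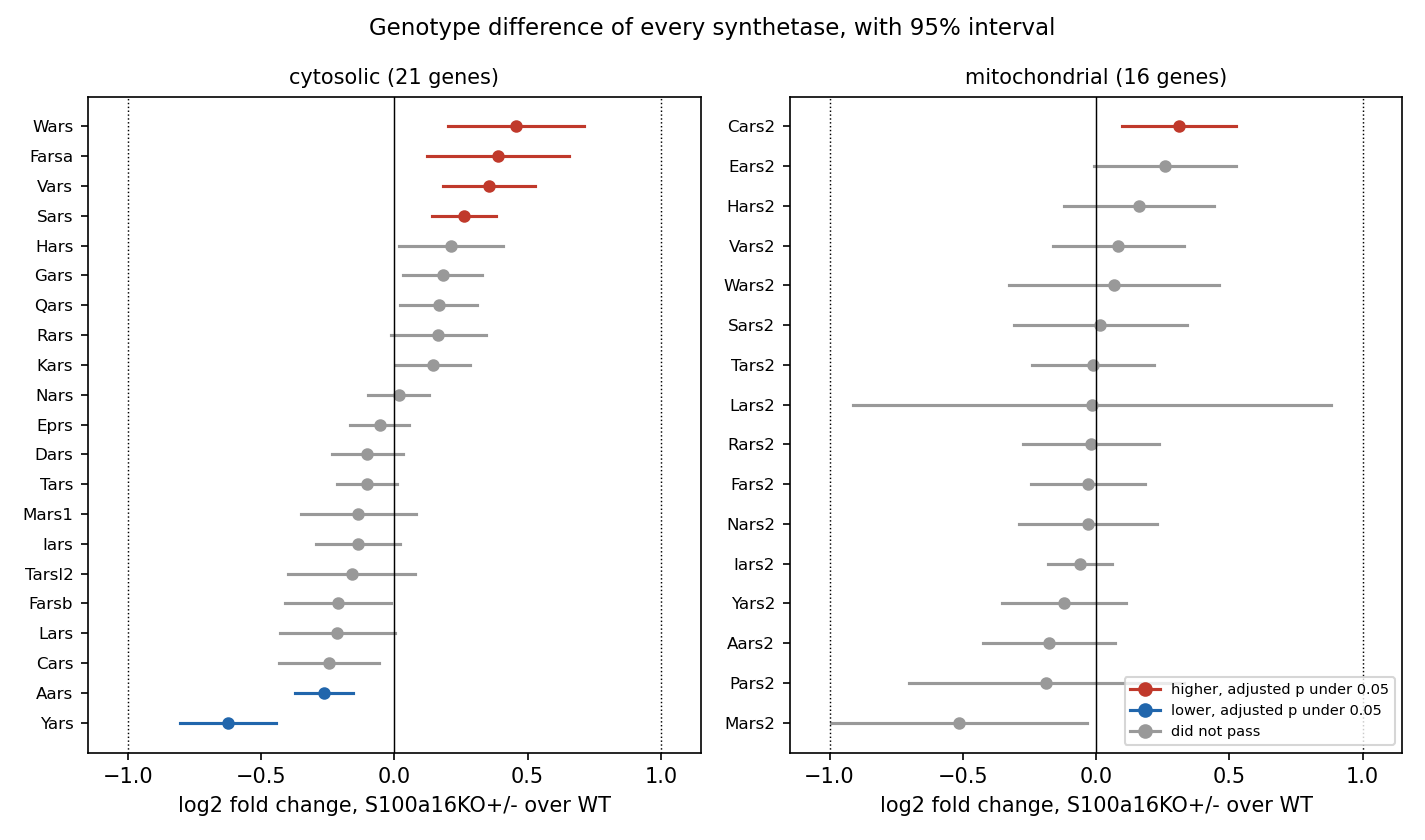
Log2 fold change of S100a16KO+/- over WT (x axis, edgeR, 3 libraries per genotype) for each of the 21 cytosolic and 16 mitochondrial synthetases (y axis), with bars for the 95% interval and dotted lines at 2-fold. Coloured members passed at an adjusted p under 0.05, and Yars at -0.62 and Wars at 0.46 stand at the ends of the cytosolic set.

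The largest fall among members that passed was that of Yars, the tyrosyl-tRNA synthetase, at chr4:129189760-129219607 (GRCm38, plus strand). WT replicates 1 to 3 had 19.9, 19.8 and 21.1 CPM, against 13.6, 13.5 and 12.4 CPM in S100a16KO+/- replicates 1 to 3. All 3 WT values were above all 3 S100a16KO+/- values, with a gap wider than the spread of either genotype. The log2 fold change was -0.62 ± 0.08 (standard error), or 0.649-fold, at an adjusted p of 7.57e-05. Yars shares 30 bases of its locus with C77080 on the opposite strand, which was also lower (log2 fold change -0.75), and whether the counting used strand is not given in the sources used here.

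Aars, the alanyl-tRNA synthetase at chr8:111033144-111046743 (plus strand), also fell. WT libraries had 109, 109 and 112 CPM and S100a16KO+/- libraries 91.2, 90.2 and 92.8 CPM. Each genotype stayed within a narrow band, and the bands did not meet. Its log2 fold change was -0.26 ± 0.05 at an adjusted p of 0.00170. Yars and Aars are the called members with a CARE core in the promoter window, and both were lower. Vars and Wars, called as higher, had no window to search. The core carriers that were not called had log2 fold changes of 0.18 (Gars), -0.10 (Tars) and -0.14 (Iars). A link between the core and the direction of change was not tested.

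Wars, the tryptophanyl-tRNA synthetase at chr12:108860030-108894174 (minus strand), had the largest rise among members that passed. Its CPM was 8.17, 10.03 and 7.48 in WT and 11.98, 11.1 and 12.2 in S100a16KO+/- hepatocytes. The highest WT library, replicate 2, stayed below the lowest S100a16KO+/- library. The log2 fold change was 0.46 ± 0.12 at an adjusted p of 0.0126, and the call was lost without WT replicate 3 (log2 fold change 0.37) or without S100a16KO+/- replicate 3 (0.43). Wars overlaps Wdr25 on the opposite strand over 544 bases, and Wdr25 had a log2 fold change of 0.03.

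Vars, the valyl-tRNA synthetase at chr17:35000987-35016322 (plus strand), was also higher. It had 20.1, 23.6 and 23.0 CPM in WT and 26.8, 28.8 and 29.8 CPM in S100a16KO+/- libraries, with no overlap. This was a log2 fold change of 0.36 ± 0.08 at an adjusted p of 0.00505. Sars, the seryl-tRNA synthetase at chr3:108424865-108445209 (minus strand), which also charges the tRNA later used for selenocysteine, rose with the smallest error of the risers. Its WT libraries had 35.8, 36.1 and 36.4 CPM and its S100a16KO+/- libraries 42.4, 43.1 and 44.5 CPM. Its log2 fold change was 0.26 ± 0.06 at an adjusted p of 0.00343.

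Farsa encodes the catalytic alpha subunit of phenylalanyl-tRNA synthetase, which pairs with the beta subunit from Farsb, and lies at chr8:84856989-84869257 (plus strand). Farsa had 7.54, 9.55 and 10.6 CPM in WT and 12.4, 12.7 and 11.1 CPM in S100a16KO+/- libraries. WT replicate 1 was well below the other WT libraries. The log2 fold change was 0.39 ± 0.12 at an adjusted p of 0.0367, and it was 0.26 and not called without WT replicate 1. The call was also lost without WT replicate 2 (0.41), S100a16KO+/- replicate 1 (0.37) or S100a16KO+/- replicate 2 (0.35). Farsb, the partner subunit, had a log2 fold change of -0.21 ± 0.09 with an adjusted p of 0.127, so that the subunits of the same enzyme had estimates of opposite sign. Whether the 2 subunits differed in their response was not tested.

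Among mitochondrial enzymes Cars2, the cysteinyl-tRNA synthetase at chr8:11513977-11550783 (minus strand), was higher. WT libraries had 8.73, 9.49 and 8.65 CPM and S100a16KO+/- libraries 11.5, 11.3 and 10.5 CPM. The groups did not overlap, and the log2 fold change was 0.31 ± 0.10 at an adjusted p of 0.0380. This call was lost in 12 of 17 alternative analyses, including leaving out any WT library (0.29, 0.35 and 0.29) and S100a16KO+/- replicate 1 (0.28) or 2 (0.30). Cars2 overlaps Naxd on the opposite strand over 984 bases, and Naxd had a log2 fold change of 0.10.

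**Figure D2:**
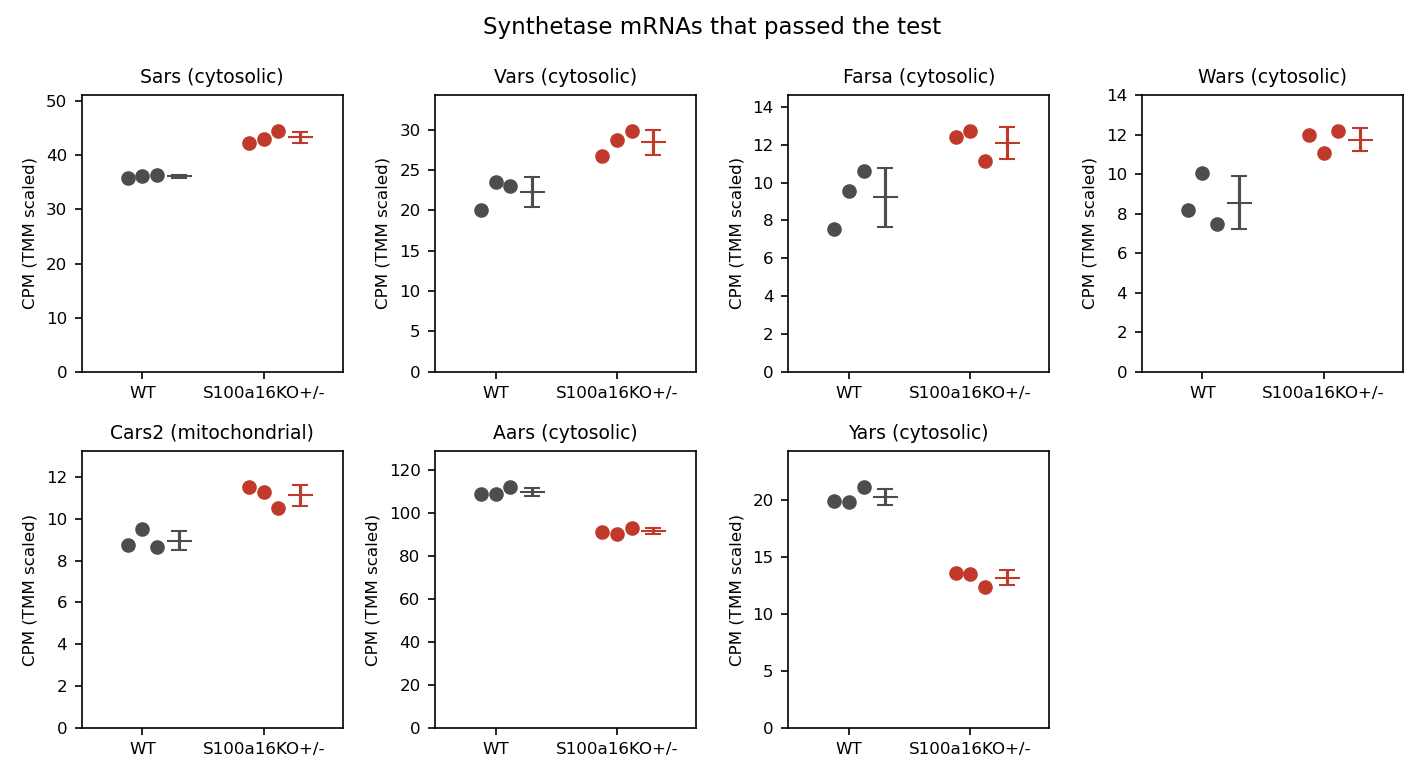
CPM after TMM scaling (y axis, from 0) of the 7 synthetases that passed the test, with 1 point per library and, beside the points, the mean with its SD (n = 3 per genotype). In each panel the S100a16KO+/- points all lie on the same side of the WT points, as for Yars with 12.4 to 13.6 CPM against 19.8 to 21.1 CPM.

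Subgroups of the cytosolic set were compared by their counts and medians. Of the 13 members induced by ATF4 in other settings 5 were called, Sars, Vars and Wars higher and Aars and Yars lower, which is 38.5% beside 22.8% of all tested genes and 28.3% within the members' abundance range. Their median log2 fold change was -0.10. Of the other 8 cytosolic members only Farsa was called, and the median was 0.16. The ATF4-induced members therefore did not share a direction.

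The multi-synthetase complex is a cytosolic assembly held together by the AIMP scaffold proteins, and 8 members encode its enzymes. None of the 8 was called, and 2 had an unadjusted p under 0.05. Their log2 fold changes were -0.21 for Lars, -0.14 for Mars1, -0.14 for Iars, -0.10 for Dars, -0.05 for Eprs, 0.15 for Kars, 0.17 for Rars and 0.17 for Qars. All 8 intervals lay within 1.5-fold. Eprs, the fused glutamyl and prolyl enzyme, had the narrowest of these, from -0.16 to 0.05 on the log2 scale. Of the 13 cytosolic members outside the complex 6 were called (46.2%), and the background in the members' abundance range was 28.3%. No test of the difference between these shares was made.

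The cytosolic members outside the complex that were not called spread around no change. Nars, the asparaginyl-tRNA synthetase, was the closest to WT, with 70.8, 67.8 and 69.0 CPM in WT and 71.0, 69.4 and 69.5 CPM in S100a16KO+/- libraries, a log2 fold change of 0.02 and an interval from -0.10 to 0.13. Hars, for histidine, had 0.21 and Gars, for glycine, had 0.18. Cars, for cysteine, had -0.24 with an adjusted p of 0.059 and was called when S100a16KO+/- replicate 2 was left out. Tars and Tarsl2, both for threonine, had -0.10 and -0.16. Tarsl2 overlaps Tm2d3 on the same strand over 923 bases, and Tm2d3 had a log2 fold change of 0.17. Hars overlaps its mitochondrial partner Hars2 on the opposite strand over 198 bases.

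The mitochondrial members that were not called ran from -0.51 to 0.26. The lowest was Mars2, for methionine, the least abundant of all members per length, with 2.71, 4.40 and 3.97 CPM in WT and 3.30, 2.05 and 2.40 CPM in S100a16KO+/- libraries. The genotypes overlapped for Mars2, its adjusted p was 0.122, and it was called only when WT replicate 1 was left out. The highest was Ears2, for glutamate, at 0.26 with an adjusted p of 0.162. Hars2 (0.16), Vars2 (0.08), Wars2 (0.07) and Sars2 (0.02) had positive estimates. Pars2 (-0.19), Aars2 (-0.18), Yars2 (-0.12), Iars2 (-0.06), Fars2 (-0.03), Nars2 (-0.03), Rars2 (-0.02) and Tars2 (-0.01) had negative ones. Iars2, for isoleucine, was measured with the smallest error of the set, and its interval ran from -0.18 to 0.06. Iars2 overlaps Rab3gap2 on the opposite strand over 2034 bases, and Rab3gap2 was called as higher (log2 fold change 0.38).

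Lars2, the mitochondrial leucyl-tRNA synthetase, stood apart by its spread and not by genotype. It had 41.2, 84.0 and 58.1 CPM in WT and 61.9, 48.1 and 71.2 CPM in S100a16KO+/- libraries. The lowest library of each genotype was WT replicate 1 and S100a16KO+/- replicate 2, and the full range of 2.04-fold lay within WT. The log2 fold change of -0.02 had a standard error of 0.33, the largest of all 37 members, and an interval from -0.91 to 0.88. Differences in Lars2 of either sign within that interval are compatible with the values of these libraries.

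Cytosolic synthetases were the more abundant set when compared per length. The median of mean FPKM (fragments scaled for transcript length and library size) was 5.62 over the 21 cytosolic members and 1.73 over the 16 mitochondrial members. The order of FPKM over all 6 libraries was led by Nars at 14.3, Tars at 11.6, Dars at 11.3 and Aars at 9.69, and ended with Wars2 at 0.596, Pars2 at 0.518 and Mars2 at 0.250. Tars and Dars, neighbours in that order, had overlapping ranges of FPKM, 10.4 to 12.4 and 9.82 to 12.1 over all libraries. Iars2 at 5.59 and Lars2 at 4.94 were the most abundant mitochondrial members.

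For 16 pairs the cytosolic and the mitochondrial enzyme of the same amino acid were compared within each library, as a ratio of FPKM after adding 0.1, which lowers the ratio where the mitochondrial member is rare, as for Mars2 and Pars2. The pairs asked whether the balance between the compartments differed with genotype. For phenylalanine the pair used Farsa alone of the cytosolic subunits, and the counts of pairs below rest on that choice. Farsb had a mean FPKM of 6.55 in WT and 5.69 in S100a16KO+/-, beside 2.38 and 2.35 for Fars2. A ratio of Farsb over Fars2 was not worked out per library. Mean WT ratios ran from 0.765 for Farsa over Fars2 to 21.9 for Mars1 over Mars2, and the cytosolic enzyme was the higher on average in WT for 14 of 16 pairs and in every library for 12 of 16. The ratio did not overlap between genotypes for 5 of 16 pairs, 2 higher and 3 lower in S100a16KO+/-. For the CPM of single genes, 37.9% of all tested genes had no overlap, and no such share was worked out for ratios. Higher ratios were those of Farsa over Fars2 (0.765 in WT and 1.02 in S100a16KO+/-) and Rars over Rars2 (1.89 and 2.14). Lower ratios were those of Cars over Cars2 (1.87 and 1.299), Yars over Yars2 (1.13 and 0.805) and Eprs over Ears2 (3.94 and 3.21). In an exact two-sided permutation test over the 20 assignments of libraries these 5 pairs reached p = 0.1, the smallest that 3 against 3 libraries allow, and the adjusted p over the 16 pairs was 0.32. The median change of the log2 ratio over pairs was 0.07, and it was -0.0553 without S100a16KO+/- replicate 2.

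**Figure D3:**
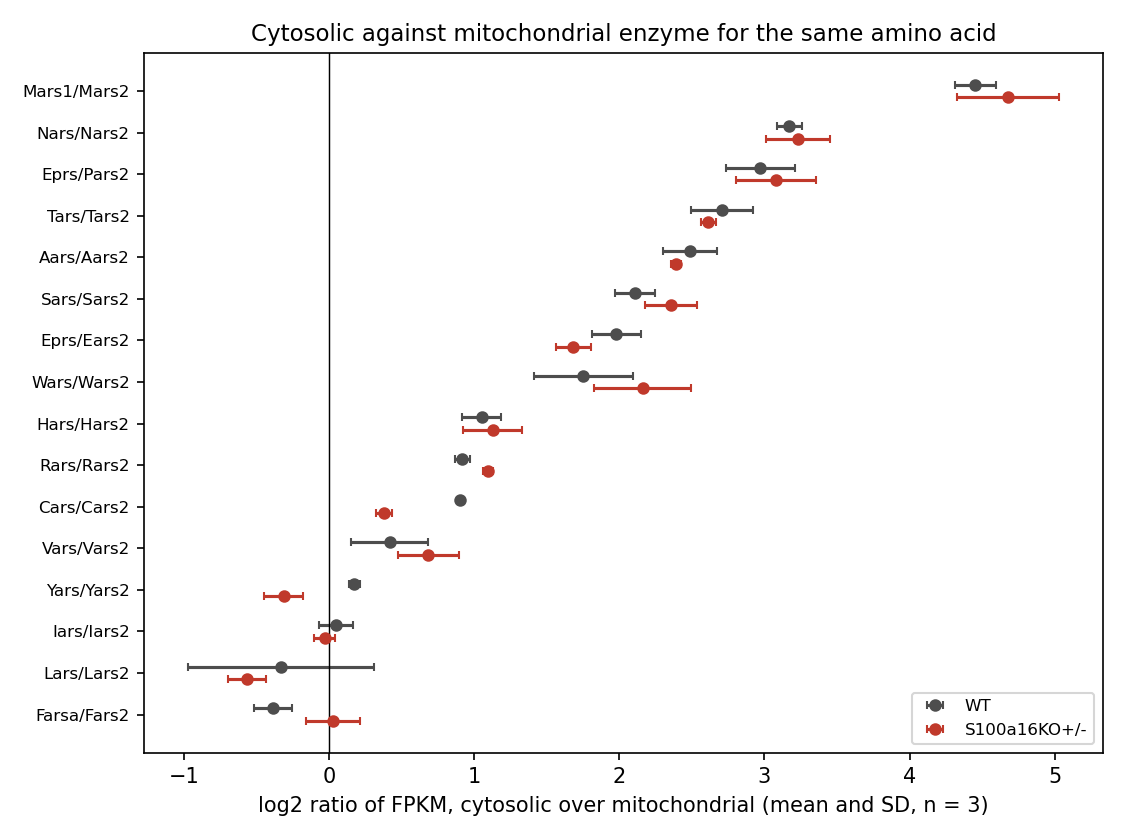
Log2 ratio of FPKM of the cytosolic over the mitochondrial enzyme (x axis, mean with SD, n = 3) for 16 pairs (y axis) in WT (grey) and S100a16KO+/- (red). Cars/Cars2 moved to the left, from 0.90 to 0.38, and Yars/Yars2 changed sides of 0, from 0.17 to -0.31.

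Other genes of the ATF4 response moved in both directions. Of 31 tested ATF4 targets that are not synthetases, a list that holds Atf4 itself, 18 were called (58.1%, beside 22.8% of all tested genes), 9 higher and 9 lower, with a median log2 fold change of 0.04. Atf4 had 81.8, 74.7 and 77.5 CPM in WT and 96.8, 103 and 98.8 CPM in S100a16KO+/- libraries, a rise of 0.35 ± 0.06 on the log2 scale at an adjusted p of 0.000366. Further genes that rose were Slc38a2, a carrier of neutral amino acids (0.91 ± 0.05), Cth, the last enzyme of cysteine synthesis (0.71 ± 0.06), and Ddit3, which encodes CHOP (0.60 ± 0.09). Ddit3 overlaps the synthetase Mars1 on the opposite strand over 68 bases, and Mars1 had a log2 fold change of -0.14. The largest falls were those of the hormone gene Fgf21 (-3.80 ± 0.13), the pseudokinase gene Trib3 (-1.62 ± 0.07) and the transcription factor gene Atf3 (-1.60 ± 0.14). Asns, which makes asparagine and is a classical ATF4 target, had -0.05 ± 0.18 and did not pass.

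The kinases that phosphorylate eIF2 alpha, listed with the activator Gcn1 and the inhibitor Impact, had 3 of 6 tested genes higher and 1 lower (66.7% called, beside 22.8% of all tested genes here and for the lists that follow). Eif2ak3, which encodes PERK, the kinase of the endoplasmic reticulum, rose by 1.59 ± 0.10. Impact rose by 0.44 ± 0.10 and Gcn1 by 0.23 ± 0.06, and Eif2ak2, the kinase activated by double-stranded RNA, had -0.32 ± 0.11 and passed as lower, a call kept in 4 of 17 alternative analyses and lost without any single library. Eif2ak4, which encodes GCN2, the sensor of uncharged tRNA, had a log2 fold change of 0.08 ± 0.15 and did not pass.

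Partners of the synthetases, meaning the complex scaffolds, elongation factor 1 subunits and the tRNA exporter Xpot, had 2 of 8 higher and 2 lower (50.0% called). The scaffold gene Aimp1 (0.34 ± 0.08) and the elongation factor gene Eef1d (0.32 ± 0.06) were higher, and Eef1e1 (-0.50 ± 0.17), another complex component, and Xpot (-0.21 ± 0.06) were lower. Xpot is counted among the ATF4 targets as well. Genes of proofreading and of indirect charging had 3 of 10 lower and 0 higher (30.0% called). Gatb (-0.34 ± 0.07) and Gatc (-0.34 ± 0.11), subunits of the complex that turns glutamate into glutamine on mitochondrial tRNA in place of a mitochondrial glutaminyl-tRNA synthetase, were lower, as was Sepsecs (-0.24 ± 0.08), which makes selenocysteine on the tRNA charged by Sars.

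Of 27 tested tRNA maturation genes 18.5% were called. Of these 2 were higher, Trmt6 (0.45 ± 0.13) and Pop1 (0.44 ± 0.14). The other 3 were lower, Pop4 (-0.50 ± 0.14), Rpp14 (-0.42 ± 0.12) and Hsd17b10 (-0.65 ± 0.06), a subunit of mitochondrial RNase P. Of 37 cytosolic initiation and elongation factors 24.3% were called, of which 5 were higher, led by Eif1a (0.57 ± 0.07), Eef2 (0.37 ± 0.05) and Eif4b (0.25 ± 0.05), and 4 were lower, led by Eif1 (-0.27 ± 0.07), Eif4g2 (-0.24 ± 0.05) and Eif5 (-0.19 ± 0.06). Mitochondrial translation factors had 5 of 17 lower and 0 higher (29.4% called). The largest falls were those of Taco1 (-0.72 ± 0.11), an activator of translation of a respiratory chain subunit, the elongation factor gene Gfm1 (-0.58 ± 0.07) and the initiation factor gene Mtif2 (-0.42 ± 0.09). Of 17 alternative analyses the call was kept in 6 for Pop1, in 7 for Eef1e1 and in 8 each for Eif5 and Sepsecs. The mitochondrial synthetases had 1 higher and 0 lower of 16 beside these.

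**Figure D4:**
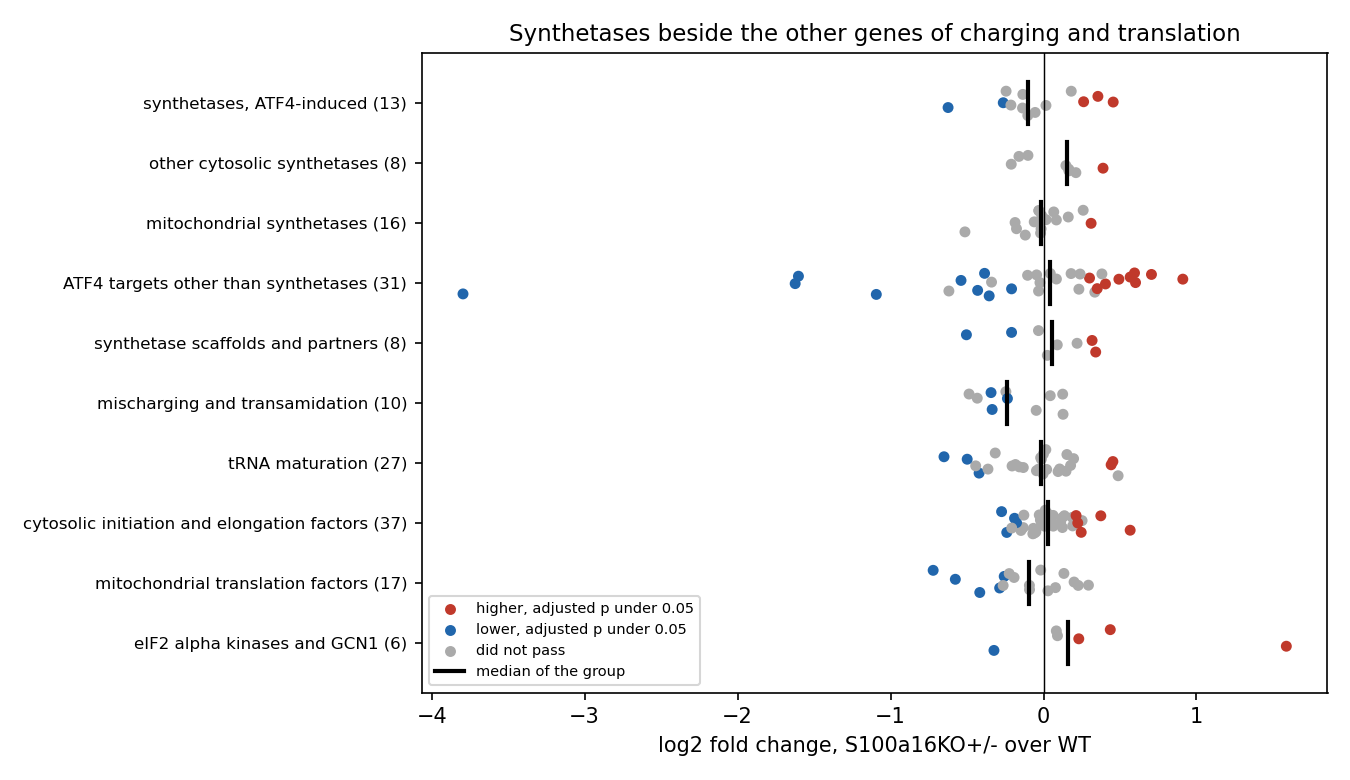
Log2 fold change of S100a16KO+/- over WT (x axis) of each tested gene in the synthetase sets and in 7 further lists (y axis, number of genes in brackets), with red and blue for genes that passed as higher or lower and a black bar for the median. The synthetases lie between -0.62 and 0.46, while the other ATF4 targets reach from -3.80 to 0.91.

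Facts of the whole series that touch these values are few. S100a16 was at 14.7 to 16.2 CPM in WT and 5.08 to 6.25 CPM in S100a16KO+/- libraries, a log2 fold change of -1.40 ± 0.11 in the direction the labels give. Library totals were 67658095 to 71807834 estimated counts. With about 4 counts taken as 1 fragment, a member rested on roughly 31 to 1730 fragments per library. Transcripts of the mitochondrial genome took 21.1% of counts in WT replicate 1 and 20.1% in S100a16KO+/- replicate 2, and 17.0 to 18.6% in the others. Of the 37 members 12 had their lowest CPM in S100a16KO+/- replicate 2 and 6 in WT replicate 1, and without both libraries 5 members were called, all of them among the 7. Hepatocyte markers were called for 3 of 10, Tat higher and Cyp2e1 and Ttr lower. Together the list summed to 115977 to 127982 CPM in WT and 112333 to 124346 CPM in S100a16KO+/- libraries. Alb made up most of these sums, with means of 88524 CPM in WT and 85458 CPM in S100a16KO+/- libraries. Endothelial markers were called for 10 of 10, 9 of them higher (summed CPM 293 to 309 in WT and 435 to 457 in S100a16KO+/-), stellate cell markers for 5 of 10, all higher (45.1 to 49.3 and 79.9 to 86.5), and macrophage markers for 3 of 10, all higher (146 to 175 and 172 to 188). Erythroid markers were lower for 5 of 5 (215 to 252 and 23.4 to 26.3), cholangiocyte markers for 1 of 4 tested (4.63 to 6.43 and 4.89 to 5.47) and leukocyte markers for 1 of 9 (9.15 to 12.4 and 11.5 to 12.9), with none higher in these 2 lists. The cholangiocyte markers Krt7 and Cftr did not pass the filter on low counts. Synthetases are used by every cell type, the part of these other cells in the synthetase values was not tested, and fewer cells of a type and less RNA per cell cannot be told apart here.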

How the data were processed

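The authors deposited, for each of 6 libraries, an estimated count and an FPKM value per gene, and per the submitters' processing notes the tools named were cutadapt 1.9, HISAT2 2.0.4, UMI-tools, StringTie 1.3.4d, DESeq2 and edgeR, on mm10. The estimated counts deposited by the authors are not scaled for library size, and the FPKM values deposited by the authors are scaled for length and library size. Libraries were grouped by the genotype in their labels. The members and gene lists were chosen with earlier results of these data known. An item that the rule also finds, and its part in every count of members, is not reported here.

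Estimated counts, rounded to whole numbers, were tested with edgeR 4.0.16 (R 4.3.3; TMM, filterByExpr, robust quasi-likelihood fit, genotype only, two-sided, Benjamini-Hochberg over 15957 genes). The test was checked on simulated data, whose smallest change was larger than that of every called member but Yars. The check thus does not cover changes of the size of the other calls. Errors are standard errors of the fit, and intervals cover 95%. A count of 0 would allow up to 12 counts. Intervals cover the spread between libraries. With 4 counts taken as 1 fragment, counting error alone would be 2.40% for Aars and 17.9% for Pars2 per library. The CPM of Aars varied less than this, by 1.68% in WT and 1.43% in S100a16KO+/- libraries (SD over mean). The reason for this was not tested, and the fragment numbers are only approximate. All members were to be named, with every library's value for the called ones, and from each list the called genes with the 3 largest rises and falls. Atf4, Asns, Eif2ak4, Nars, Mars2 and Lars2 were singled out after their values were seen. Alternatives were DESeq2 1.42.0, limma 3.58.1 on log2(FPKM + 0.1) or log2(FPKM + 1), other filters and scalings, a replicate block and leaving out libraries. Sequences are from RefSeq.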

Additional observations from a re-analysis of the deposited data

How the results depend on the processing

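Under 17 alternatives 4 to 7 members were called, apart from 1 (Yars) with limma on log2(FPKM + 1) without a filter. That setting also called fewer of all genes, 924 higher and 742 lower of 25718. The main analysis called 1853 higher and 1790 lower of 15957. Yars was called in 17, Aars and Sars in 16, Vars and Wars in 14, Farsa in 8 and Cars2 in 5 of the 17, and no member called in the main analysis changed sign. Cars and Hars2 (without S100a16KO+/- replicate 2), Mars2 (without WT replicate 1) and Farsb (without WT replicate 2) were called only there. Mars2, Pars2 and Wars2 fall below the FPKM filter, which keeps 34 of 37 members. The cause of these differences was not tested, and no scaling of the counts moved the median of all genes by more than 0.02.

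With limma on log2(FPKM + 0.1), on log2(FPKM + 1) and on log2(FPKM + 1) without a filter, in that order, the calls were 2, 2 and 0 for cytosolic members higher, 0, 0 and 0 for mitochondrial members higher, 4, 4 and 3 for cytosolic translation factors, 2, 2 and 1 for eIF2 alpha kinases, 3, 3 and 2 for mitochondrial translation factors and 2, 2 and 1 for synthetase partners. For tRNA maturation they were 2 in the first and 1 in the last. The last also gave 1 cytosolic member lower and 0 genes of proofreading and indirect charging. Mitochondrial members higher were 0 with DESeq2, without a filter on counts, with the replicate block and without the library richest in mitochondrial transcripts of each genotype, an alternative added after seeing the data. That last setting gave 3 mitochondrial translation factors and 2 tRNA maturation genes. The median change of the log2 pair ratio was 0.0016 with log2(FPKM + 1).

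Same-numbered libraries did not deviate together (correlations -0.0062, -0.016 and 0.00045), so the numbers are not taken as pairs. The replicate block called 5 members, losing Cars2 and Farsa, 1566 genes higher and 1516 lower among all genes, and 1 gene of proofreading and indirect charging. It turned Lars2 to 0.0294.

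With 1 library left out, the calls ranged from 3 to 3 for cytosolic members higher, 2 to 3 for cytosolic members lower, 0 to 1 for mitochondrial members higher and 0 to 1 for mitochondrial members lower. For the lists they ranged from 4 to 10 (cytosolic translation factors), 2 to 3 (eIF2 alpha kinases), 1 to 3 (proofreading and indirect charging), 3 to 5 (mitochondrial translation factors), 2 to 4 (partners) and 2 to 3 (tRNA maturation). The median pair ratio ranged from -0.0553 (without S100a16KO+/- replicate 2) to 0.104. Members near 0 that were not called changed sign, with log2 fold changes of -0.0878 to 0.0411 for Fars2, -0.23 to 0.28 for Lars2, -0.11 to 0.10 for Nars2, -0.0743 to 0.0708 for Rars2, -0.0493 to 0.128 for Sars2, -0.081 to 0.113 for Tars2, -0.0225 to 0.166 for Vars2 and -0.10 to 0.22 for Wars2. Lars2 was 0.0315, 0.0206 and 0.0206 under the 3 FPKM settings, Tars2 0.0011 with log2(FPKM + 0.1), and without the library richest in mitochondrial transcripts of each genotype Nars2 was 0.067 and Wars2 -0.0199.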
